A study of Homo sapiens with 6 samples.

Results

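The heme synthesis enzymes ALAS1, ALAS2, ALAD, UROS, UROD, CPOX, PPOX and FECH were chosen by name, 8 of 62252 annotated genes, and examined at the level of mRNA. Of all genes 21045 had a mean estimated count above 10 and were tested. All 8 were among the genes tested, with 896 to 45216 estimated counts in any library. The RNA was polyA-selected from K562, an established human line of leukemic origin that makes embryonic and fetal globins. The cells descend from 1 K562flox clone with a landing site at the AAVS1 locus, into which Cre-mediated cassette exchange placed Flag-PCBP1 under a tet-inducible promoter with puromycin resistance. Of 6 libraries, 3 came from cells without doxycycline (−Dox, labelled control) and 3 from cells with it (+Dox). Both groups carry the cassette and differ in Dox as well as in PCBP1, an RNA-binding protein and iron chaperone, so that the effect of the drug and of the protein cannot be told apart. The dose and time of Dox for these libraries were not given in the sources used here, and neither was whether the 3 libraries of a group came from separate cultures, so p-values measure the spread between libraries, which may be technical. The depth was 84177316, 80104627 and 74766040 estimated counts for the −Dox libraries, in the order of their numbers, against 70905656, 82263502 and 82449808 for the +Dox libraries.

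Heme synthesis starts and ends in the mitochondrion. ALAS1 and ALAS2 are the alternative enzymes of the first, rate-limiting reaction, which joins glycine and succinyl-CoA. ALAS1 is made in most tissues and is held down by heme, and ALAS2 is the red cell enzyme, whose mRNA carries an iron-responsive element (IRE) to which iron regulatory proteins bind when iron is low. ALAD, UROS and UROD act in the cytosol, CPOX and PPOX at the mitochondrion, and FECH inserts iron into protoporphyrin as the last step.

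The PCBP1 mRNA followed the labels, with 156.0, 157.6 and 162.7 TPM (a level scaled for transcript length and library size, so that genes can be compared) in −Dox and 596.4, 582.2 and 600.4 TPM in +Dox. All 10 markers listed for K562 cells were detected in both groups, and the most abundant was HBG2, a fetal globin whose counts are uncertain beside its near-identical copy HBG1, at 9789 ± 149.4 TPM in −Dox and 9999.9 ± 176.6 TPM in +Dox (SD, n = 3). Of these red cell lineage markers, 4 were called higher (EPOR, KLF1 and TAL1 among them) and 2 lower (TFRC, the transferrin receptor, and LMO2) in +Dox by edgeR, and their summed level was 19911 to 20819 TPM in −Dox and 19604 to 20090 TPM in +Dox. EPOR, the erythropoietin receptor, was at 7.46 ± 0.179 TPM in −Dox and 14.1 ± 0.383 TPM in +Dox (SD, n = 3). The part of red cell differentiation in the values of the heme enzymes was not tested. Markers of liver cells, which also make much heme, summed to at most 0.278 TPM in any library, those of fibroblasts to at most 0.85 TPM and those of B cells to at most 2.51 TPM. The T cell markers summed to 33.7 to 57.4 TPM, nearly all of it CD3D, with CD3E and CD2 at or under 0.0467 TPM on the mean of either group. Those of monocytes and macrophages summed to 94.1 to 131.4 TPM in −Dox and 73.2 to 85.4 TPM in +Dox, nearly all of it LYZ, which was called lower (log2 −0.47, edgeR, adjusted p = 0.00837), with CD14 and CSF1R at or under 0.0747 TPM on the mean of either group.

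Of the 8 enzymes, 7 rose and 1, ALAS1, fell in +Dox. Calls were made at an adjusted p under 0.05 by edgeR's quasi-likelihood test, two-sided, with Benjamini-Hochberg adjustment over all genes tested. Over all those genes 15.8% were called, 8.16% higher and 7.68% lower. The median log2 fold change was 0.57 over the enzymes and 0.0061 over all genes, and the enzymes ranged from −0.22 to 1.53. With the limit of the study for differentially expressed genes, which adds an absolute log2 fold change above 1, ALAS2 and PPOX passed, both higher. That limit was passed by 1.46% of all genes, and 0.737% passed it as higher. In CPM (counts scaled to library size with TMM), the +Dox libraries were all above the −Dox libraries for 7 enzymes and all below them for ALAS1, where 17.4% and 15.8% of all genes were so separated. In bulk RNA a change in the share of cells that make an mRNA and a change in mRNA per cell cannot be told apart.

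**Figure D1:**
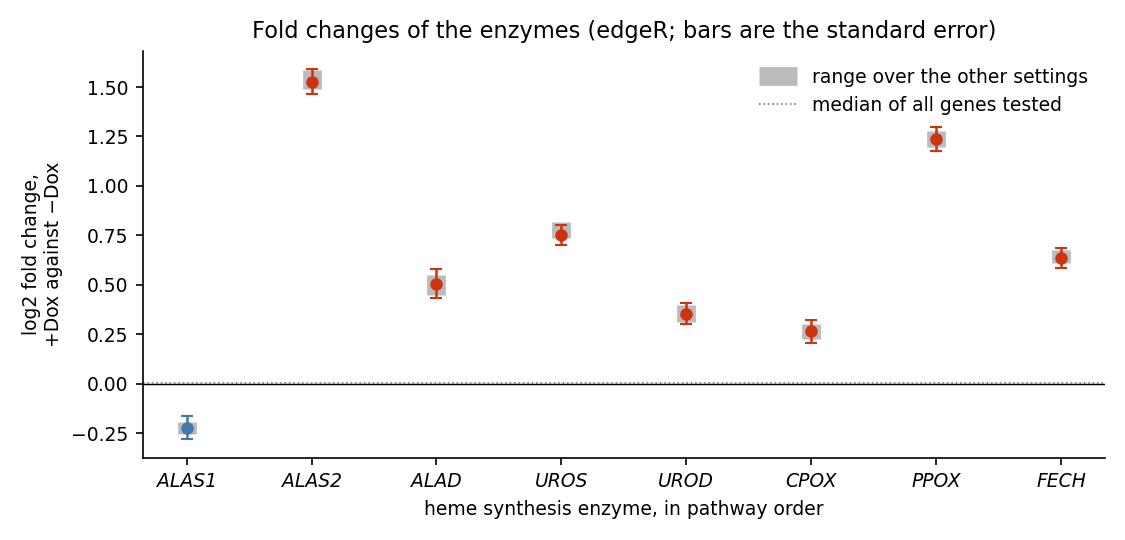
The log2 fold change of each enzyme, +Dox against −Dox, by edgeR with its standard error (bars), and the range of the same value over the other settings tried (grey). The enzymes above 0 run from CPOX at 0.27 to ALAS2 at 1.53, and ALAS1 lies below 0 at −0.22, with the median of all genes (dotted) near 0.

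ALAS2 had the largest increase of the 8. ALAS2 (ENSG00000158578.21, chrX:55009055-55030977 on GRCh38, minus strand) was at 16.9, 17.2 and 17.2 TPM in −Dox and at 48.4, 52.8 and 44.1 TPM in +Dox. The −Dox libraries were nearly equal and every +Dox library was far above them. The log2 fold change of ALAS2 was 1.53 (SE 0.063, edgeR, adjusted p = 2.50e-08), which is 2.88-fold, and 0.679% of all genes tested had a larger value. ALAS1 (ENSG00000023330.15, chr3:52198086-52214327, plus strand) was at 24.7, 26.0 and 26.8 CPM in −Dox and at 21.4, 22.8 and 22.3 CPM in +Dox. The groups did not overlap on this scale, but the gap was small. ALAS1 had a log2 fold change of −0.22 (SE 0.059, edgeR, adjusted p = 0.0225). The fall of ALAS1 was the weakest of the 8 calls. An offset for transcript length gave an adjusted p of 0.265 by edgeR. Dropping −Dox library 2 or 3 gave 0.0729 and 0.089, and dropping +Dox library 1 or 3 gave 0.0879 and 0.0616. The log2 fold change stayed between −0.26 and −0.19 in all settings tried. In TPM the groups overlapped for ALAS1, at 11.9, 13.5 and 12.5 in −Dox and 11.0, 12.1 and 9.35 in +Dox. The 4 full-length ALAS1 transcripts together did not overlap, at 10.95, 10.93 and 11.90 TPM in −Dox and 8.89, 9.99 and 9.35 TPM in +Dox. That sum was not tested.

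The pair of first-step genes differed in direction, so that their ratio was higher in +Dox. The ratio of ALAS2 to ALAS1 in TPM was 1.42, 1.28 and 1.38 in −Dox and 4.39, 4.35 and 4.71 in +Dox. All +Dox ratios were above all −Dox ratios, with means of 1.36 ± 0.074 and 4.48 ± 0.199 (SD, n = 3, exact permutation test of the log2 ratio, two-sided, p = 0.1, the smallest that 3 libraries against 3 allow). ALAS2 was 57.5% ± 1.34 of the summed ALAS mRNA in −Dox and 81.8% ± 0.649 in +Dox (SD, n = 3). The sum of ALAS1 and ALAS2 itself was 29.8 ± 0.929 TPM in −Dox and 59.2 ± 5.74 TPM in +Dox (SD, n = 3, exact permutation test, two-sided, p = 0.1). Neither ratio nor sum overlapped between the groups.

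Sequence features of ALAS2 are shown before its isoforms. The first is the IRE in the 5′ UTR, in capitals the loop, at chrX:55030943-55030967 on GRCh38, minus strand, within the first exon.
ALAS2 IRE: cgttcgtcctCAGTGCagggcaaca
The element lies whole in the 36-base first exon, and all 3 full-length ALAS2 transcripts hold it. A search for C, a stem of 5 bases, the loop CAGTGN and a pairing stem (G-U pairs allowed, transcript strand only) in the 5′ UTRs of 19061 MANE Select transcripts matched 0.0997% of them, and of the 8 enzymes ALAS2 was the one with a match. The second is the promoter, the 250 bases before the ALAS2 start from RefSeq (GRCh38.p14, chrX:55030978-55031227, minus strand), in capitals the match to a GATA motif, named for the family of GATA1.
ALAS2 promoter: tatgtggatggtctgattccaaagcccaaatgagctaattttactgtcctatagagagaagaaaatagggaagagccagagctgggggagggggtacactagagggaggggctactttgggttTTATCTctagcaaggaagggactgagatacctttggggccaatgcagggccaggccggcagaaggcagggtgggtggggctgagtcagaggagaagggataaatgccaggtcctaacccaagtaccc
The letters searched on both strands were NGATAN with A or T as the first base and A or G as the last, which matched in 22.3% of 35116 RefSeq windows of the 250 bases before a start and in 4 of the 9 such windows of the enzymes. RefSeq windows were matched for 7 of the 8 enzymes, all but UROS. The matches of ALAD, ALAS2, CPOX and PPOX are given with 10 bases on each side, read along the strand of the gene, with the matched letters in capitals.
ALAD, chr9:113401173-113401198: ggatgcggggAGATAGcgggcctgga
ALAS2, chrX:55031089-55031114: actttgggttTTATCTctagcaagga
CPOX, chr3:98593803-98593828: aaagcctcttTTATCTctcccgtccc
CPOX, chr3:98593721-98593746: cgtcggattcTTATCTcccgccccgc
PPOX, chr1:161166573-161166598: ggtgtggcccTTATCTgcacccagca
In ALAS2, CPOX and PPOX the motif stands on the other strand (TTATCT), and in ALAD on the strand of the gene. In ALAD and PPOX the match is in the window of the downstream RefSeq start, and the window of the upstream start has 0. The ALAD match lies downstream of the starts at chr9:113401243-113401290, the group with most of its TPM. That of PPOX lies downstream of its main start group, at chr1:161166410-161166498. The letters GCGCANGCG, a core of the NRF1 site, on both strands, matched in 6.56% of all windows and in none of those of the enzymes. Such matches describe letters in these windows, and binding was not measured here.

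Salmon divided ALAS2 among 3 full-length transcripts, and each had more TPM in every +Dox library than in any −Dox library. ALAS2-209, the MANE Select transcript of 587 codons, was at 9.79, 7.35 and 8.998 TPM in −Dox and at 24.4, 25.1 and 21.6 TPM in +Dox. ALAS2-201, of 550 codons, was at 5.69, 6.92 and 5.25 TPM in −Dox and at 14.3, 15.3 and 14.2 TPM in +Dox. ALAS2-202, of 574 codons, was at 0.777, 2.16 and 1.2 TPM in −Dox and at 7.84, 7.80 and 4.59 TPM in +Dox. The transcripts differ at an exon of 111 bases, which adds 37 codons and is in ALAS2-209 but not in ALAS2-201 or ALAS2-202. The exon lies at chrX:55023757-55023867 on the minus strand and is shown in capitals between the last and first 6 bases of its neighbours.
ALAS2 coding exon: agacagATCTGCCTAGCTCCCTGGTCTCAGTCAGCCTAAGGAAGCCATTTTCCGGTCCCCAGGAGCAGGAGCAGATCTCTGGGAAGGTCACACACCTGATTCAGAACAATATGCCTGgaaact
Alone among the 3 full-length transcripts, ALAS2-202 begins its coding region in a second exon of 107 bases, which the shorter ALAS2-208 also has and whose coding part (chrX:55027751-55027807, minus strand) opens with the start codon in capitals.
ALAS2-202 coding part: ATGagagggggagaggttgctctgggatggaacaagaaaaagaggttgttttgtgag
Of the TPM on the 3 full-length transcripts, those with the 111-base exon held 54.4% ± 8.42 in −Dox and 52.6% ± 0.747 in +Dox (SD, n = 3, exact permutation test, two-sided, p = 0.9). Those with the second exon of ALAS2-202 held 8.57% ± 4.24 in −Dox and 14.8% ± 2.99 in +Dox (SD, n = 3, exact permutation test, two-sided, p = 0.2). Both shares overlapped between the groups. The log2 difference of the share of ALAS2-202 within the gene was 0.88 with a 95% interval of −0.19 to 1.95 (adjusted p = 0.758 by limma). Leaving out 1 library gave 0.54 to 1.27, and a pseudocount of 1 TPM gave 0.36. A shift of 0.88 was not detectable at this spread.

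**Figure D2:**
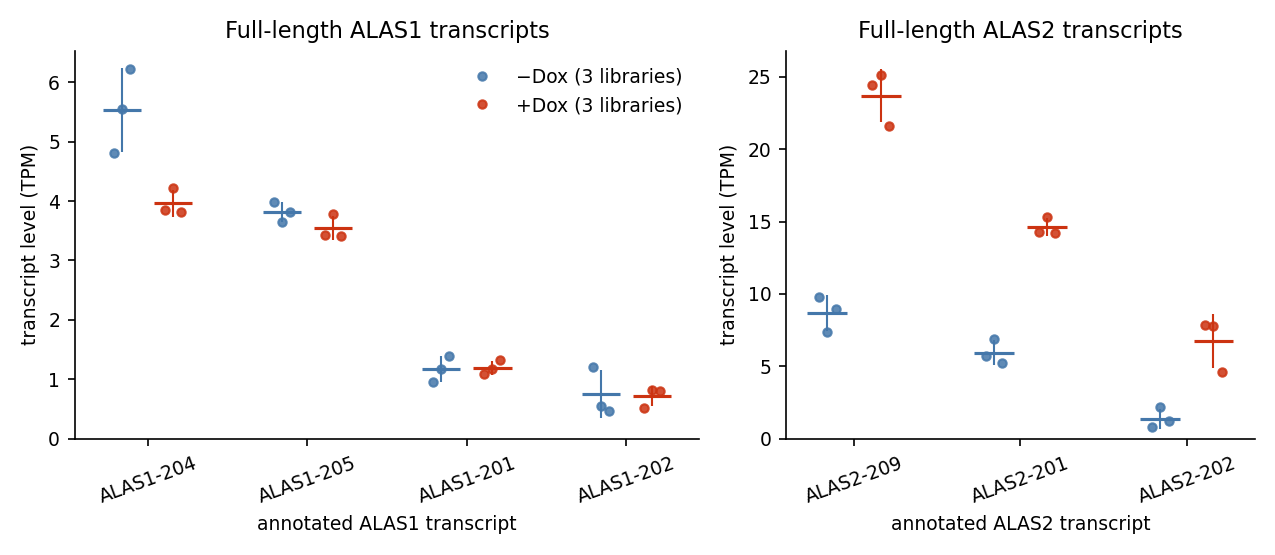
Level in TPM of each full-length transcript of ALAS1 (left) and ALAS2 (right) in 3 −Dox and 3 +Dox libraries, as points for single libraries with the mean and SD as lines. All 3 ALAS2 transcripts are higher in +Dox without overlap, and ALAS1-204 is lower without overlap while the other ALAS1 transcripts overlap.

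ALAS1 was carried by 4 full-length transcripts of 640 codons each that differ in the 5′ UTR. ALAS1-204 also has a shorter last exon, of 161 bases against 305 to 308 in the other 3. ALAS1-204 was at 4.81, 5.55 and 6.23 TPM in −Dox and at 3.85, 4.22 and 3.81 TPM in +Dox, without overlap (log2 difference −0.43, standard error 0.126, adjusted p = 0.346 by edgeR). ALAS1-205, the MANE Select transcript, overlapped between the groups at 3.98, 3.65 and 3.81 TPM in −Dox and 3.43, 3.78 and 3.42 TPM in +Dox. ALAS1-205 and ALAS1-202 include a further 5′ UTR exon of 177 bases (chr3:52198672-52198848), which ALAS1-204 and ALAS1-201 lack. The share of transcripts with it among the 4 was 40.6% ± 6.01 in −Dox and 45.2% ± 0.840 in +Dox (SD, n = 3, exact permutation test, two-sided, p = 0.4). The 4 share a start group (chr3:52198086-52198160), which held 89.3% of ALAS1 TPM in −Dox and 87.7% in +Dox. The short ALAS1-203, of 2 exons and 350 bases, was at 0.140, 2.05 and 0.158 TPM in −Dox and at 1.88, 1.201 and 0 TPM in +Dox, from a mean of 7.21 counts.

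The 3 cytosolic enzymes ALAD, UROS and UROD all rose. UROS (ENSG00000188690.15, chr10:125784980-125823258, minus strand), which closes the porphyrin ring, was at 24.6, 21.0 and 23.6 TPM in −Dox and at 39.0, 40.3 and 39.5 TPM in +Dox. No library of one group came near those of the other. UROS had a log2 fold change of 0.75 (SE 0.052, edgeR, adjusted p = 1.42e-06). UROD (ENSG00000126088.14, chr1:45010950-45015575, plus strand), which takes carboxyl groups off uroporphyrinogen, was the most abundant of the 8 at 455.1 ± 10.3 TPM in −Dox and 565.4 ± 5.75 TPM in +Dox (SD, n = 3). Its log2 fold change was 0.35 (SE 0.053, edgeR, adjusted p = 7.14e-04). ALAD (ENSG00000148218.16, chr9:113386312-113401290, minus strand), which joins a pair of aminolevulinate molecules, was the least abundant at 5.71, 4.91 and 5.58 TPM in −Dox and 7.35, 7.62 and 7.74 TPM in +Dox. Its log2 fold change was 0.51 (SE 0.074, edgeR, adjusted p = 6.14e-04).

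The mitochondrial enzymes CPOX, PPOX and FECH rose too, with the largest change at PPOX. PPOX (ENSG00000143224.18, chr1:161166056-161178013, plus strand), which oxidizes protoporphyrinogen, was at 17.3, 16.6 and 18.7 TPM in −Dox and at 38.4, 48.0 and 36.7 TPM in +Dox. The groups were far apart, and +Dox replicate 2 was the highest library. For PPOX the log2 fold change was 1.24 (SE 0.061, edgeR, adjusted p = 1.05e-07). FECH (ENSG00000066926.13, chr18:57544377-57586732, minus strand) was at 39.0, 38.9 and 36.0 TPM in −Dox and at 57.5, 59.3 and 60.7 TPM in +Dox. Its libraries were close within each group. FECH had a log2 fold change of 0.64 (SE 0.049, edgeR, adjusted p = 3.82e-06). CPOX (ENSG00000080819.9, chr3:98579446-98593648, minus strand), which converts coproporphyrinogen, had the smallest increase, from 21.1 ± 1.69 TPM to 24.7 ± 1.49 TPM (SD, n = 3). Its difference was 0.27 on the log2 scale (SE 0.058, edgeR, adjusted p = 0.00754). Leaving out any library kept its adjusted p at or under 0.0438 by edgeR.

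**Figure D3:**
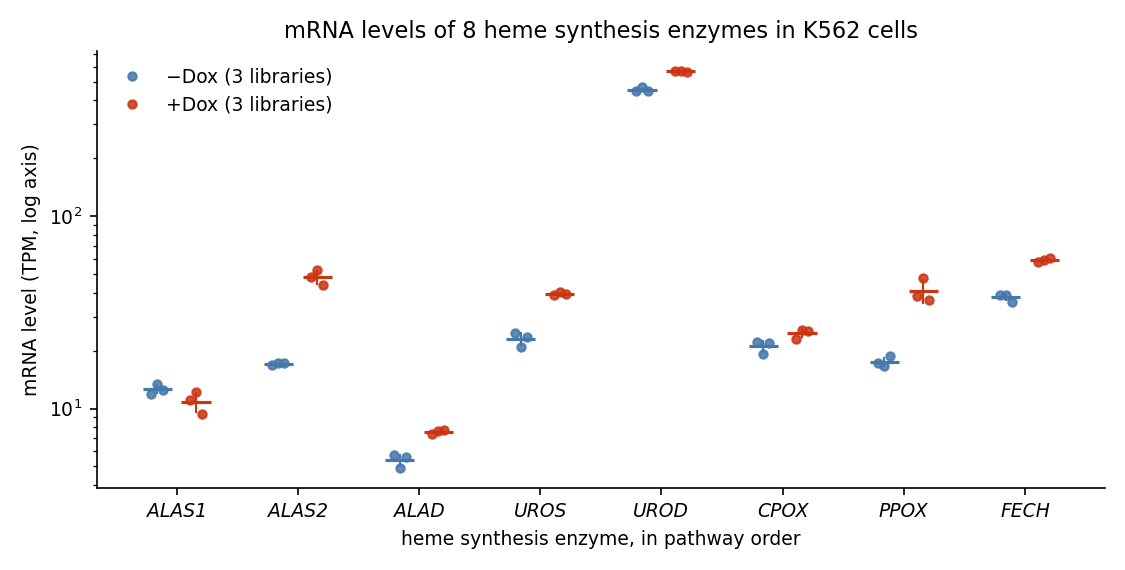
mRNA level in TPM, on a log axis, of the 8 enzymes in pathway order in 3 −Dox and 3 +Dox libraries, as points for single libraries with the mean and SD as lines. UROD stands highest (455.1 and 565.4 TPM on the mean) and ALAD lowest (5.40 and 7.57 TPM), and on this log axis ALAS2 has the widest gap between groups (17.1 and 48.4 TPM).

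Ordered by TPM in −Dox, UROD was followed by FECH, UROS, CPOX, PPOX, ALAS2, ALAS1 and ALAD. The libraries of UROS and CPOX overlapped, as did those of PPOX and ALAS2, and no other neighbours in this order did. In +Dox the order was UROD, FECH, ALAS2, PPOX, UROS, CPOX, ALAS1 and ALAD, with overlap between ALAS2 and PPOX and between PPOX and UROS. ALAS2 was thus number 6 in −Dox and number 3 in +Dox. UROD held 77.1% of the summed TPM of the 8 in −Dox and 71.0% in +Dox. The sum over the 8 was 589.9 ± 7.18 TPM in −Dox and 796.7 ± 17.6 TPM in +Dox, and without UROD it was 134.8 ± 3.32 and 231.3 ± 12.6 TPM (SD, n = 3, exact permutation test, two-sided, p = 0.1 for both).

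UROS is known for an upstream housekeeping promoter and a downstream erythroid promoter, and the annotation separates their starts. Annotated starts within 100 bases of each other were joined into groups. The upstream group of UROS (chr10, first base 125823258), which includes the MANE Select transcript UROS-204, was at 8.502, 9.87 and 8.17 TPM in −Dox and at 13.7, 14.0 and 14.1 TPM in +Dox. The downstream start (chr10, first base 125816632) has the transcript UROS-203, which has the same number of codons (265) and another first exon, and was at 8.87, 6.48 and 9.17 TPM in −Dox and at 17.1, 16.4 and 18.2 TPM in +Dox. Both were higher in every +Dox library, by 1.57-fold in mean TPM upstream and 2.11-fold downstream. The downstream share of UROS was 35.2% of the gene in −Dox and 43.5% in +Dox, without overlap. How often shares separate in this way over all start groups or transcripts is not given here. Such separations, here and below, are therefore not set against a background. The log2 difference of that share was 0.50 with a 95% interval of −0.055 to 1.05 (adjusted p = 0.728 by limma), and that of the upstream share was −0.21 (−0.87 to 0.44, adjusted p = 0.904 by limma). Of 36 start groups of the enzymes that could be tested, 0 were called by limma or by diffSpliceDGE and 3 had an unadjusted p under 0.05 by limma. Over all start groups 0.0948% were called, and 6.87% had an unadjusted p under 0.05. In simulated data made from these libraries, 9% of start groups with a log2 difference of 1.5 were called, so a shift of the size seen at UROS was not detectable with this test. Smaller start groups of UROS and PPOX had a lower share in every +Dox library although their TPM was higher. That of UROS-206 and UROS-208 held 9.49% of UROS in −Dox and 7.52% in +Dox (adjusted p = 0.737 by limma). The starts of PPOX-205 and PPOX-218 held 9.86% and 7.92% of PPOX in −Dox and 7.60% and 5.95% in +Dox (adjusted p = 0.754 and 0.725 by limma). In UROD the start group of UROD-201 held 84.5% in −Dox and 86.0% in +Dox, without overlap (adjusted p = 0.90 by limma). The shares of 5 further start groups overlapped between the groups of libraries. In −Dox and +Dox these were 99.6% and 99.2% of ALAS2 for the common start, 90.4% and 90.7% of CPOX for the start of CPOX-204, 50.9% and 54.6% of FECH for its upstream start, 11.4% and 11.1% of PPOX for the start of PPOX-204, and 6.99% and 7.03% of UROD for the start of UROD-202.

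**Figure D4:**
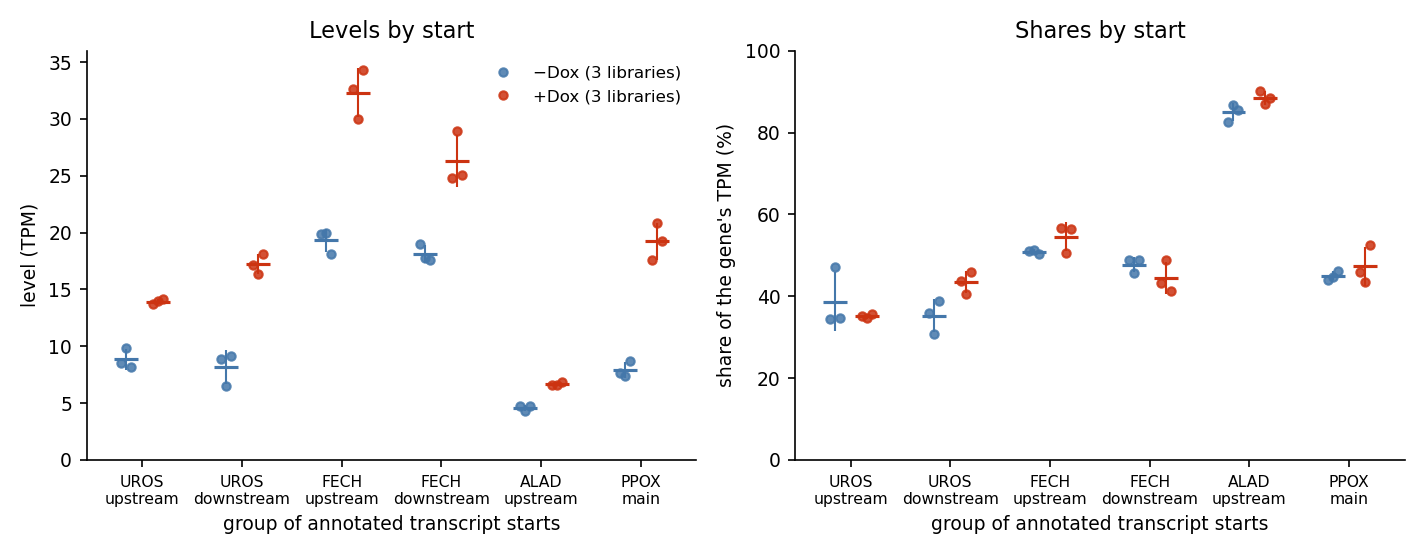
Level in TPM (left) and share of the TPM of the gene in % (right) of the groups of annotated starts of UROS, FECH, ALAD and PPOX, as points for 3 −Dox and 3 +Dox libraries with the mean and SD as lines. Each of the 6 start groups drawn, which leave out the smaller ones, has a higher level in +Dox, and the shares of UROS downstream (35.2% and 43.5%) and ALAD upstream (85.01% and 88.5%) do not overlap between the groups. How often shares separate so over all start groups is not given here.

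ALAD also has a housekeeping and an erythroid first exon. The 6 transcripts of the upstream group (starts at chr9:113401243-113401290) were counted together. The window before the downstream RefSeq start of ALAD runs down to chr9:113401121, so the group does not take in that start. That group held 85.01% of ALAD in −Dox and 88.5% in +Dox (log2 difference of the share 0.44, 95% interval −0.11 to 0.99, adjusted p = 0.754 by limma). By edgeR's diffSpliceDGE the log2 difference for that group was 0.011. ALAD-201, the MANE Select transcript, was at 2.96, 2.73 and 3.30 TPM in −Dox and 4.54, 4.37 and 4.11 TPM in +Dox. The short ALAD-207, which starts further downstream and has no defined coding region, was lower in every +Dox library than in any −Dox library, at 0.539, 0.492 and 0.558 TPM in −Dox and 0.257, 0.448 and 0.381 TPM in +Dox. The log2 difference of the ALAD-207 share was −1.03 with a 95% interval of −1.60 to −0.45, and its adjusted p of 0.557 by limma was the lowest among 87 transcripts of the enzymes whose share was tested. The transcript had a mean of 11.8 counts, near the limit of 10 for testing. ALAD-209, a retained-intron transcript with a mean of 9.001 counts that was not tested, was higher in every +Dox library, at 0.128, 0.126 and 0.101 TPM in −Dox and 0.364, 0.837 and 0.564 TPM in +Dox. The retained-intron transcripts ALAD-206 and ALAD-208 overlapped between the groups, at 0.944 ± 0.040 and 0.499 ± 0.143 TPM in −Dox and 1.25 ± 0.351 and 0.501 ± 0.096 TPM in +Dox (SD, n = 3).

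FECH mRNA was assigned mainly to transcripts without a defined coding region. FECH-210, which has a first exon of its own (chr18:57586219-57586391) and ends in a last exon of 1278 bases, was at 19.0, 17.7 and 17.6 TPM in −Dox and at 24.8, 29.0 and 25.1 TPM in +Dox. FECH-205, of 5 exons and 564 bases from the upstream start, was at 13.2, 14.0 and 11.2 TPM in −Dox and at 20.2, 21.3 and 26.0 TPM in +Dox. It had a mean of 474 counts, where FECH-210 had 4468, so its share in TPM is far above its share of counts. The shares of FECH by start and by coding type rest on these TPM values. The MANE Select transcript FECH-201 was listed at 0 in all libraries and FECH-212, with a last exon of 6458 bases, at 1.52 TPM in −Dox and 2.33 TPM in +Dox on the mean. Their last exons are longer than that of FECH-210, with which they share the 5′ end of the last exon. The FECH-210 share was 47.8% ± 1.80 in −Dox and 44.4% ± 3.91 in +Dox (SD, n = 3), with a log2 difference of −0.19 (95% interval −0.73 to 0.34, adjusted p = 0.884 by limma). That of FECH-205 was 33.7% ± 2.40 and 38.0% ± 4.28 with a log2 difference of 0.26 (95% interval −0.30 to 0.83, adjusted p = 0.846 by limma). Leaving out 1 library gave log2 differences of −0.32 to −0.10 for the FECH-210 share and 0.12 to 0.35 for that of FECH-205. Both shares overlapped between the groups.

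PPOX was spread over 27 annotated transcripts. The coding pair PPOX-201 and PPOX-202, both of 477 codons, varied against each other between libraries, at 0, 1.97 and 3.13 TPM for PPOX-201 and 4.69, 3.34 and 2.02 TPM for PPOX-202 in −Dox. In +Dox PPOX-201 was at 5.52, 7.89 and 6.24 TPM and PPOX-202 at 6.54, 4.69 and 5.02 TPM. Their main start group was at 7.63, 7.42 and 8.66 TPM in −Dox and at 17.6, 20.8 and 19.3 TPM in +Dox, 45.0% and 47.3% of the gene (log2 difference of the share 0.13, 95% interval −0.41 to 0.67, adjusted p = 0.936 by limma). The retained-intron PPOX-210 was at 2.35 ± 0.301 TPM in −Dox and 4.71 ± 1.68 TPM in +Dox, and the short coding PPOX-204 at 1.43 ± 0.262 and 2.59 ± 0.983 TPM (SD, n = 3). Neither was called by edgeR (adjusted p = 0.317 and 0.621). Retained-intron transcripts held 38.0% ± 1.13 of PPOX in −Dox and 37.7% ± 5.90 in +Dox (SD, n = 3). Transcripts annotated as protein-coding summed to 8.45 ± 0.296 TPM in −Dox and 18.5 ± 1.31 TPM in +Dox (SD, n = 3), without overlap.

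UROD and CPOX were each carried by 1 main transcript. UROD-201 was at 283.6, 287.7 and 289.5 TPM in −Dox and at 374.8, 374.7 and 372.0 TPM in +Dox, and its share of UROD was 63.1% ± 1.43 and 66.1% ± 0.417 (SD, n = 3). The shares did not overlap, and their log2 difference was 0.19 (95% interval −0.27 to 0.65, adjusted p = 0.862 by limma). CPOX-204 held 83.1% ± 2.78 of CPOX in −Dox and 82.3% ± 0.499 in +Dox, and the retained-intron CPOX-201 9.59% ± 3.16 and 9.28% ± 0.675 (SD, n = 3).

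Over all isoforms, of 116 annotated transcripts of the enzymes 86 were tested, and 74 of these had a positive log2 difference. The share of positive values over all transcripts is not given here, so that count is not set against a background. By edgeR 3 were called, all higher: ALAS2-209 (1.51, standard error 0.098, adjusted p = 0.0251), ALAS2-201 (1.35, standard error 0.131, adjusted p = 0.0414) and FECH-210 (0.600, standard error 0.054, adjusted p = 0.0373). Over all 86178 transcripts tested, 0.204% were called and 0.129% were called higher. None of the 3 was called when any 1 library was left out, where 2 to 4 transcripts were called in all. DESeq2 called 21 transcripts of the enzymes and 5876 over all transcripts, with the same count filter. The number of called isoforms thus depends on the method. In the shares of transcripts within their genes 0 of 87 were called by limma, where 0.104% of all shares were called, and 4 had an unadjusted p under 0.05, as had 6.73% of all shares. By edgeR's diffSpliceDGE, run on the transcripts of the 75200 shares that passed the same filter, 1 was called, of 492 over all genes. The share on protein-coding transcripts was called for 0 of the 7 enzymes that could be tested, with 0 at an unadjusted p under 0.05, and for 0% of 8246 genes, of which 627 had an unadjusted p under 0.05. That share was highest for ALAS1 (100%) and ALAS2 (95.4% in −Dox, 95.6% in +Dox) and lowest for FECH (7.09% and 7.86%).

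Genes that overlap the enzymes could share reads with them where strand was not used in counting, which the sources used here do not state. B4GALT3 lies opposite PPOX and shares 23.7% of its exon bases. It was at 33.6 TPM without and 31.6 TPM with Dox, and its difference was not called (log2 0.04, edgeR, adjusted p = 0.69). Exons of HECTD3 cover 9.31% of UROD, at 9.48 and 10.3 TPM (log2 fold change 0.12, adjusted p = 0.222 by edgeR). APEX2 covers 0.147% of ALAS2, at 7.65 and 7.37 TPM (log2 fold change 0.0028, adjusted p = 0.987 by edgeR). The remaining overlaps were with ENSG00000285635 at CPOX, on the same strand, and ENSG00000290115 at PPOX, which stayed under 0.5 TPM on the mean of either group.

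Around the pathway, 28 genes of supply, transport and control were examined, of which 27 were tested. Called higher were 6 and lower 4, where 8.16% and 7.68% of all genes were called, and the median log2 fold change was 0.026. A role with 1 call among 3 to 6 genes is not told apart from that background. The share of called genes was highest for porphyrin transport and mitochondrial membrane partners, where 4 of 5 rose. These were TMEM14C, which brings protoporphyrinogen into the matrix (309.9 ± 9.74 TPM in −Dox and 375.5 ± 5.68 TPM in +Dox, log2 fold change 0.30), FAM210B (0.32), ABCB10, an inner membrane transporter (21.2 ± 1.25 and 28.8 ± 2.38 TPM, 0.52), and ABCB6, a transporter linked to porphyrins (8.14 ± 0.600 and 12.4 ± 0.347 TPM, 0.58), all with SD and n = 3. Their adjusted p by edgeR was at most 0.00197.

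Supply of precursors and iron held 2 of the genes called lower. Of 6 genes of glycine and succinyl-CoA supply, 1 fell, SHMT2, which makes glycine from serine (57.9 ± 2.26 and 47.4 ± 0.745 TPM, SD, n = 3, log2 fold change −0.16, adjusted p = 0.0379 by edgeR). SUCLG1, the most abundant of that role and a subunit of succinyl-CoA ligase, was at 136.5 ± 3.73 and 144.2 ± 1.98 TPM. Of the 3 genes of mitochondrial iron delivery 1 fell, SLC25A28 or mitoferrin-2 (log2 fold change −0.26, adjusted p = 0.0456 by edgeR), and SLC25A37 or mitoferrin-1, the red cell iron carrier, was at 77.1 ± 1.37 and 81.9 ± 5.58 TPM (adjusted p = 0.155 by edgeR). Among 3 genes that turn over or activate ALAS proteins, LONP1, a matrix protease, fell (−0.19, adjusted p = 0.037 by edgeR), and CLPP was at 79.4 ± 3.57 and 78.6 ± 6.05 TPM. Of the partners of ferrochelatase the most abundant, ATP5IF1, which inhibits the ATP synthase in reverse, was not called, nor were PGRMC1 and PGRMC2. ATP5IF1 was at 433.7 ± 36.3 and 499.9 ± 24.6 TPM (adjusted p = 0.139 by edgeR). Without a filter on low counts it was called higher (log2 fold change 0.19, adjusted p = 0.00748 by edgeR). The lower calls above did not all hold when a single library was left out. The call of SHMT2 and that of SLC25A28 were lost on leaving out any library but −Dox library 1 (adjusted p up to 0.143 and 0.139 by edgeR), and that of LONP1 on leaving out any but −Dox library 2 and +Dox library 1 (up to 0.147 by edgeR). With the replicate number as a block all 3 calls were lost (adjusted p = 0.0984, 0.0768 and 0.0799 by edgeR), and with the transcript length offset that of SLC25A28 (0.255).

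Transcription factors known for each isoenzyme were listed apart. Of 4 genes that act on ALAS1 transcription 3 were tested, and 1 fell, NR1D1, a heme-binding repressor at low level (1.23 ± 0.099 TPM in −Dox and 0.548 ± 0.079 TPM in +Dox, SD, n = 3, log2 difference −1.13, edgeR, adjusted p = 4.43e-04). NRF1 was at 12.6 ± 0.996 and 12.04 ± 0.680 TPM (adjusted p = 0.842 by edgeR). Of 4 erythroid factors 2 rose, KLF1 (50.7 ± 2.61 and 68.5 ± 2.16 TPM, log2 fold change 0.46, adjusted p = 0.00121 by edgeR) and TAL1 (13.5 ± 1.35 and 16.9 ± 0.374 TPM, 0.44). GATA1, the most abundant, was at 124.1 ± 3.20 and 130.2 ± 1.64 TPM (log2 fold change 0.12, adjusted p = 0.113 by edgeR).

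**Figure D5:**
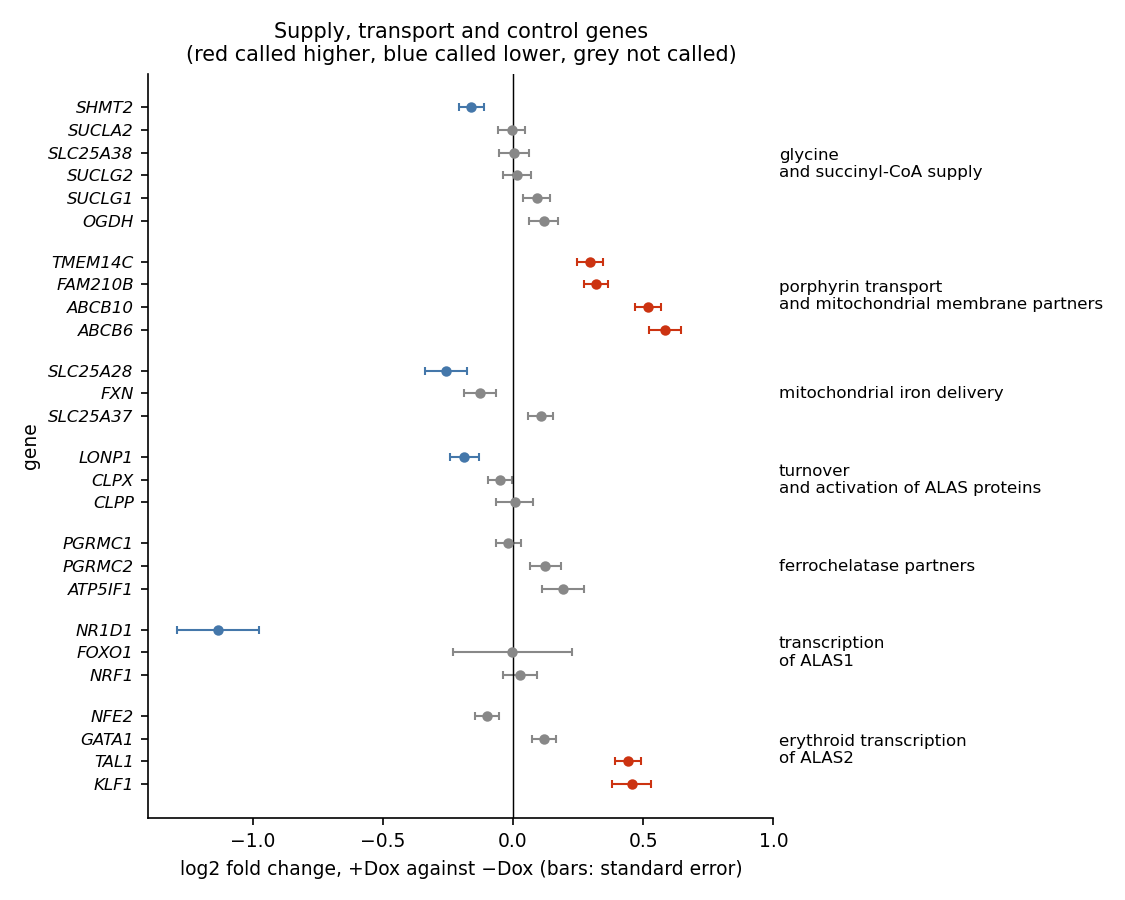
The log2 fold change, +Dox against −Dox, of the genes of supply, transport and control by role, all those tested but 1 that was not called, with the standard error from edgeR (bars). Red genes were called higher (6), blue genes lower (4) and grey genes were not called. Of the 6 red genes 4 belong to the role of porphyrin transport and mitochondrial membrane partners.

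Among 9288 genes with a mean of at least 10 CPM, the patterns most like that of ALAS2 over the 6 libraries were those of RHD, LINC00891 and RELN. Likeness was the root mean square difference of the centred log2 CPM, which was 0.088, 0.091 and 0.14 for these and 0.771 for the median gene. The measure takes in the difference between the groups, so genes with a fold change like that of the enzyme lie near it. Beside a log2 fold change of 1.53 for ALAS2 these had 1.54, 1.39 and 1.37. A gene without a change lies further off for that reason alone. RHD, a red cell surface antigen with a near-identical copy that makes its counts uncertain, was at 5.32, 5.77 and 6.42 TPM in −Dox and at 16.3, 17.1 and 15.4 TPM in +Dox. For ALAS1 the nearest were CHD4, POM121 and PXN, at 0.022, 0.022 and 0.023, where the median gene was at 0.138. POM121 has near-identical copies, so its counts are uncertain as well.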

How the data were processed

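Per the labels and the methods of the study, polyA RNA was sequenced as paired-end reads and quantified by the authors with Salmon 1.10.2. The processing notes name the build hg38. The deposited estimated counts per transcript are not normalized, and the deposited TPM values were scaled by Salmon for effective transcript length and library size. The Salmon index, strand and bias settings are not given in the sources used here. Of 252045 transcripts, 433 were not in GENCODE v44 (0.125% to 0.138% of counts) and were left out. Estimated counts were summed per gene, rounded and tested with edgeR 4.0.16 (TMM, quasi-likelihood, R 4.3.3) where the mean count was above 10, across all genes or transcripts. Shares of a gene's TPM were tested with limma 3.58.1 on log2 ratios of the feature to the rest of its gene (pseudocount 0.1 TPM, genes of at least 1 TPM). Ratios and sums were tested by exact permutation over libraries. Intervals cover the spread between libraries.

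The enzymes and gene lists were chosen with earlier results of these data known, and 1 further enzyme of the pathway and single genes of the lists are not reported here. Named were PCBP1, the 8 enzymes, their transcripts and start groups with at least 5% of the gene's TPM on the mean of the 6 libraries, genes with overlapping exons, the genes of the supply, transport and control list called (up to 3 per role) with the most abundant of each role, and the 3 genes nearest in pattern to ALAS1 and ALAS2. PGRMC1, PGRMC2, the cell type markers and the shorter transcripts outside this rule were named after their values were seen.

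Alternatives were DESeq2 1.42.0, RLE scaling, other filters, a length offset, the replicate block, other pseudocounts, estimated counts in place of TPM, other joining of starts and leaving out each library. On simulated data made from these libraries, edgeR recovered 100% of 200 genes changed by a log2 value of 1.5 among 21045. The limma test recovered 0% of transcript shares changed by 1.5 and 75% of those changed by 4. Motifs were searched in the 250 bases before each RefSeq start. Python 3.11.15, pandas 2.3.3, scipy 1.17.1 and matplotlib 3.10.9 were used.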

Additional observations from a re-analysis of the deposited data

How the results depend on the processing

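At the gene level the 7 enzymes called higher kept that call, and ALAS2 and PPOX the larger limit, under all 12 alternatives. The fall of ALAS1 did not: 0 enzymes were called lower with a transcript length offset, and 0 to 1 when 1 library was left out. That offset called 1883 genes in all, and 515 genes passed the limit of a log2 fold change above 1 without a filter on low counts. Of transcripts, DESeq2 called 5876 (20 of the enzymes higher, 1 lower), and leaving out 1 library called 2 to 4, with 0 of the enzymes. Transcript shares were called 492 times by diffSpliceDGE, chosen after seeing the data (1 of the enzymes, higher), 208 times with estimated counts, 22 times with a pseudocount of 1 TPM and 0 to 109 times without 1 library, with 0 when +Dox library 2 was out. Start shares were called 146, 61 and 14 times under the same 3 settings, 22 times with starts joined where first exons overlap, and 23 to 40 times without 1 library. Protein-coding shares were called 3 times with estimated counts, 1 time without a filter and 0 to 1 times without 1 library. The causes were not tested.

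The replicate numbers do not pair the libraries: deviations of libraries with one number correlated at 0.0075, −0.060 and −0.0029. With the number as a block, 2490 genes were called in place of 3333, again 7 enzymes higher and 1 lower, without the calls of SHMT2, SLC25A28 and LONP1, and 0 transcripts, 0 of the enzymes, 0 transcript shares and 0 start shares.

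Among values near 0 that were not called, the sign of the log2 difference changed. DESeq2, RLE and a summed count above 10 gave −0.0019, −0.0019 and −0.0014 for CLPP, and −0.0052, −0.0052 and −0.0047 for APEX2. APEX2 was at −0.00065 without a filter. The length offset gave −0.020 for APEX2, −0.025 for NRF1 and −0.053 for B4GALT3. Leaving out 1 library gave −0.059 to 0.068 for CLPP, −0.037 to 0.064 for NRF1, −0.083 to 0.052 for APEX2, −0.00027 to 0.067 for B4GALT3, −0.23 to 0.51 for ALAS1-202, −0.075 to 0.22 for ALAS1-201, −0.085 to 0.29 for ALAD-208 and −0.051 to 0.43 for CPOX-201. For shares it gave −0.35 to 0.089 for ALAS2-209, −0.34 to 0.034 for the upstream UROS start and −0.026 to 0.24 for the main PPOX start.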
